A study of Mus musculus with 4 samples.

Results

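The genes of oxidative phosphorylation were followed in single-nucleus RNA-Seq of mouse lung. Members were all genes whose symbols begin with Nduf, Uqcr, Cox4 to Cox8, Atp5 or mt-, together with Sdha, Sdhb, Sdhc and Sdhd. This took 107 of the 32285 genes in the count matrices, and each of them had at least 1 UMI among barcodes of 1500 or more unique molecular identifiers (UMIs, each standing for 1 captured RNA molecule). Of these, 13 are protein genes of the mitochondrial genome and 94 are encoded in the nucleus. The lungs came from 2 wild-type (WT) mice and 2 VEcad-TRF2DN-Tg (Tg) mice, both of C57/BL6J background per the study, all 8 to 9 weeks of age. In the Tg mice a dominant-negative form of TRF2, a protein that protects telomeres, is made in endothelial cells (ECs) under the vascular endothelial cadherin promoter, and the study's question was how EC senescence bears on pulmonary hypertension. The study's methods state that male mice were regularly used. Its results state that the sequenced lungs of both genotypes were from mice exposed to chronic hypoxia, so there was no normoxic group among these libraries. Each mouse gave 1 library, and n = 2 for each genotype throughout.

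Oxidative phosphorylation takes place in the inner mitochondrial membrane. Complex I (NADH dehydrogenase) and complex II (succinate dehydrogenase, which is also an enzyme of the TCA cycle) pass electrons to ubiquinone, complex III passes them on to cytochrome c, and complex IV (cytochrome c oxidase) passes them to oxygen, while complex V makes ATP from the proton gradient that complexes I, III and IV build. Complexes I, III, IV and V hold subunits from both genomes, whereas complex II is encoded in the nucleus alone. Messenger RNAs of the mitochondrial genome are made inside mitochondria and not in the nucleus. The 94 nuclear-encoded members comprised 37 of complex I, 8 complex I assembly factors (Ndufaf genes), 4 of complex II, 8 of complex III, 20 of complex IV and 17 of complex V. Ndufa4 and its relative Ndufa4l2 were counted with complex IV. Of the 13 mitochondrial members, 7 belong to complex I, 1 to complex III, 3 to complex IV and 2 to complex V.

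NRF1, GABP, YY1 and ERR are transcription factors known to act on the promoters of respiratory genes. Promoter windows of RefSeq (GRCm38.p6), 250 bases before to 50 after each start, were at hand for 75 of the 94 nuclear-encoded members, and short forms of the motifs were looked for on both strands. TGCGCA, the core of the NRF1 motif, which reads the same on both strands, was in a window of 18 of the 75 members (24.0%), beside 8.79% of the 27025 genes with a window. The GABP form CCGGAAG was found for 19 members (25.3%, beside 9.93% of all genes), the YY1 form AAGATGG for 11 (14.7%, beside 7.28%) and the ERR form AAGGTCA for 8 (10.7%, beside 5.38%). These are matches of letters, not binding sites. Stretches of 250 bases up to the start are shown for 3 members, with those forms in capitals. Cox5b, a subunit of complex IV, and Ndufs5, of complex I, are shown because both were higher in the Tg libraries, and Sdha, the catalytic subunit of complex II, because it was not called. The stretches are chr1:36691237-36691486 on the plus strand for Cox5b, chr4:123718187-123718436 on the minus strand for Ndufs5 and chr13:74350241-74350490 on the minus strand for Sdha. Ndufs5 holds the ERR form, read as its reverse complement, as well as the NRF1 core, and Sdha holds the NRF1 core at 2 places.
Cox5b: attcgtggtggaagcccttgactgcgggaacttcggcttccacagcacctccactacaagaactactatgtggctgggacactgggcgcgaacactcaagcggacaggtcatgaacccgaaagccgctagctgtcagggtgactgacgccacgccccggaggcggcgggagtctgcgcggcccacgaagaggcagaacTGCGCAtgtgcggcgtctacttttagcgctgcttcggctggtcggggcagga
Ndufs5: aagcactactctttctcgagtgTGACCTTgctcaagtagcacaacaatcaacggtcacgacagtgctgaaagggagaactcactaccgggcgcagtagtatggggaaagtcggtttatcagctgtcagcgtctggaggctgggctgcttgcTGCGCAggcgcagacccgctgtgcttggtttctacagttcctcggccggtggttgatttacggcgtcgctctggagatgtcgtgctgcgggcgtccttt
Sdha: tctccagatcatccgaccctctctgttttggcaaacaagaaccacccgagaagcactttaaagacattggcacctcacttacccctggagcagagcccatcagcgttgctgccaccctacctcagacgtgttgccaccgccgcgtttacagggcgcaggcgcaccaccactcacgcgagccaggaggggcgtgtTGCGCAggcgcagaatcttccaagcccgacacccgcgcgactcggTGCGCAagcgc

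The matrices were unfiltered and held 125261739 and 146133943 UMIs in WT lungs, against 128645180 and 182014706 in Tg lungs. Barcodes with 1500 or more UMIs, called deep here, numbered 26933 and 38543 in WT lungs, against 25269 and 44000 in Tg lungs. Barcodes with 300 to 800 UMIs, called low, numbered 7688, 10371, 18387 and 2732, and were used as a stand-in for free RNA. Barcodes of 100 to 300 UMIs were few (95 to 113 a library) and those of 800 to 1500 UMIs many (22414 to 43348), so the low barcodes may include shallow nuclei, and their content was not tested. A cell class was given to 22461 deep barcodes from marker genes, among which there is no member, and the classes are written as EC-like and so on. They made up 11% of the deep barcodes in each WT mouse and 26.8% and 19.3% in the Tg mice. The other 112284 deep barcodes had no class and may include droplets with free RNA but no nucleus, which was not tested. The study reports fewer nuclei in all than there are deep barcodes here. Deep and low therefore name ranges of depth, and not nuclei and free RNA. In 10 classes every mouse had 30 or more barcodes. All markers of the 10 classes were found in their class, and the median EC-like barcode held 21 to 29 UMIs of EC markers by mouse, beside 4 to 6 of the next class. Barcodes were chosen by these same markers, so such counts follow from the rule and do not test the class names. Between 25.2% and 33.8% of the EC-like barcodes, and 44.9% to 56.6% of those like alveolar type 2 cells (AT2), lay near the limits of the rule. Pairs of libraries shared 176 to 475 deep barcode sequences (0.697% to 1.30% of the smaller library).

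Both Tg libraries stood apart from the WT libraries in their low barcodes. Haemoglobin transcripts, which belong to red cells, made up 0.0329% and 0.0373% of UMIs in low barcodes of the WT mice and 0.812% and 0.515% in those of the Tg mice. Cytoplasmic ribosomal protein transcripts made up 0.788% and 1.80% against 7.31% and 6.22%. Both moved the same way in EC-like barcodes, where haemoglobin was 0.0142% and 0.0126% against 0.317% and 0.185% and ribosomal protein transcripts were 0.341% and 0.744% against 2.79% and 2.41%. Of RNAs that stay in the nucleus, Malat1 made up 3.23% and 3.89% of deep UMIs in WT lungs, against 8.96% and 4.88% in Tg lungs. Neat1 went the other way, with 0.142% and 0.123% against 0.118% and 0.107%. Kcnq1ot1 was at 0.0293% and 0.0460% against 0.0560% and 0.0511%, and Meg3 overlapped. In low barcodes Malat1 was at 3.08% and 3.02% in WT lungs, against 4.91% and 4.41% in Tg lungs. Neat1 was there at 0.110% and 0.101% against 0.0593% and 0.0855%, and Kcnq1ot1 at 0.0221% and 0.0295% against 0.0120% and 0.0168%. With 2 libraries a group, the genotype and the make-up of a library's low barcodes cannot be told apart. In sums over barcodes, more cells of a type and more RNA per nucleus cannot be told apart either.

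The first comparison asked how the members stood in deep barcodes beside low barcodes of the same mouse. Mitochondrial members made up 0.0828% and 0.130% of deep UMIs in WT lungs, against 0.321% and 0.383% in Tg lungs. In low barcodes their share was 0.126% and 0.151% in WT lungs, against 0.785% and 0.685% in Tg lungs. The share was thus lower in deep barcodes of every mouse, by 0.208 percentage points on average (0.229% against 0.437%), and by 0.122 points without Tg 1. Nuclear-encoded members made up 0.278%, 0.365%, 0.689% and 0.642% of deep UMIs, in the order WT 1, WT 2, Tg 1 and Tg 2. Their share of low UMIs was 0.407%, 0.547%, 1.77% and 1.41%. They too were lower in deep barcodes of every mouse, by 0.540 points (0.494% against 1.03%), and by 0.359 points without Tg 1. Against barcodes of 20 to 100 UMIs the nuclear-encoded difference was -0.102 points (p = 0.375, exact permutation test) and WT 1 went the other way, with 0.278% in deep barcodes and 0.240% in those of 20 to 100 UMIs. Both differences had p = 0.13 in an exact two-sided permutation test, the smallest that 4 pairs allow.

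**Figure D1:**
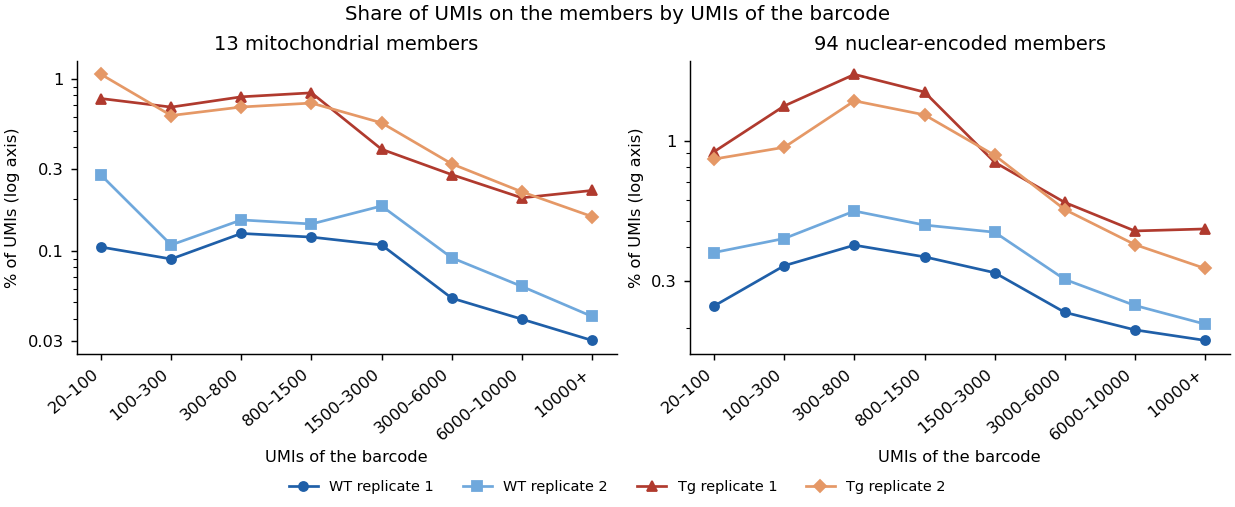
Share of UMIs on mitochondrial (left) and nuclear-encoded (right) oxidative phosphorylation genes, in percent on a log axis, by the number of UMIs of a barcode, with 1 line per mouse. Both shares were lower in the deepest barcodes than in those of 300 to 800 UMIs in all 4 mice, and the lines of both Tg mice lie above those of both WT mice in every range.

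The shares were lower still in the deepest barcodes. In barcodes of 1500 to 3000 UMIs mitochondrial members made up 0.108% and 0.182% of UMIs in WT lungs, against 0.389% and 0.554% in Tg lungs. In barcodes of 10000 or more they made up 0.0301% and 0.0415% in WT lungs, against 0.224% and 0.158% in Tg lungs. Nuclear-encoded members went from 0.322%, 0.456%, 0.832% and 0.883% in the former range to 0.180%, 0.207%, 0.469% and 0.334% in the latter. In WT 2 the mitochondrial share at 1500 to 3000 UMIs lay above that of its low barcodes (0.151%), while in the other 3 mice it lay below. The WT and Tg mice did not overlap in any of these ranges.

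Gene by gene, with the mouse as a block, 77 of the 105 members tested fell in deep barcodes in edgeR's quasi-likelihood test, at an adjusted p under 0.05 (Benjamini-Hochberg, over all genes), and the other 28 did not pass. Over all genes tested, 18.3% fell. The members that fell were 72 of 92 nuclear-encoded and 5 of 13 mitochondrial. The median log2 difference, deep minus low, was -1.03 over nuclear-encoded members, -0.52 over mitochondrial members and 0.03 over all genes. Complex III (6 of 8 fell, median -1.16), complex IV (16 of 18, -1.07), complex V (15 of 17, -1.04) and complex I (32 of 37, -1.03) were much alike. Complex II (1 of 4, -0.40) and the complex I assembly factors (2 of 8, -0.24) had medians nearer to zero. Against low barcodes of 20 to 100 UMIs, 2 of 103 members were called, 1 of them higher. All nuclear-encoded members together had only 30, 71, 127 and 157 UMIs in those barcodes. The count of 77 also rested on Tg 2, without which the adjusted test of edgeR called 0 members although 71 had an unadjusted p under 0.05. It rested on the block too, since without it edgeR called 0 members (34 at an unadjusted p under 0.05), while DESeq2 with the block called 79.

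Among the nuclear-encoded members, Cox8b, the muscle form of a small complex IV subunit, had a log2 difference of -1.64 (SE 0.36, edgeR adjusted p = 0.0131), but rested on 6, 27, 98 and 109 UMIs in deep barcodes. Ndufb7, of complex I, was measured at 31.6 and 38.4 CPM (UMIs of a gene scaled to the summed UMIs of the same barcodes) in deep barcodes of the WT mice and 76.1 and 67.8 in those of the Tg mice. In low barcodes it was at 68.2 and 96.4 in WT lungs, against 236 and 178 in Tg lungs, and it fell by 1.48 on the log2 scale (SE 0.17, edgeR adjusted p = 0.00539). Uqcr11, of complex III, fell by 1.46 (SE 0.19) and Cox4i1, the widely expressed form of complex IV subunit 4, by 1.31 (SE 0.21, edgeR adjusted p = 0.00591). Of the mitochondrial members, mt-Co3, a core subunit of complex IV, fell by 1.12 (SE 0.22, edgeR adjusted p = 0.00934) and mt-Nd3, of complex I, by 1.02 (SE 0.20). The members called among the mitochondrial genes were mt-Co1, mt-Co2, mt-Co3, mt-Nd1 and mt-Nd3, so all 3 complex IV genes of the mitochondrial genome were among them. For mt-Nd6, the log2 difference was -0.31, and for mt-Nd5 it was -0.32. The genes with values nearest to zero were long ones, with Ndufs4 at 0.04, Ndufaf2 at 0.01 and Ndufs1 at -0.06. Ndufaf5 and Ndufaf6, assembly factors of complex I, had 0.29 and 0.28 (edgeR adjusted p = 0.136 for each).

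The second comparison set the Tg mice against the WT mice, first in low barcodes. Here 92 of 104 members were called higher in Tg mice (80 of 91 nuclear-encoded and 12 of 13 mitochondrial), where 14.5% of all genes tested were called higher, and none was called lower. The median log2 difference was 2.10 for nuclear-encoded and 2.96 for mitochondrial members, beside 0.04 over all genes. All 8 members of complex III, all 17 tested of complex IV and all 17 of complex V passed, as did 34 of 37 of complex I. The count depended on Tg 1: without it edgeR called 0 members, with 88 at an unadjusted p under 0.05.

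Deep barcodes were then taken whole, most of them without a class. The mitochondrial share was 3.32 times as high in the Tg mice as in the WT mice and the nuclear-encoded share 2.07 times, each without overlap. The differences were 0.246 percentage points (0.352% against 0.106%) and 0.344 points (0.666% against 0.321%), each with p = 0.33 in an exact two-sided permutation test, the smallest that 2 mice against 2 allow. In the fit across genes, 106 members passed the filter on low counts (Cox8c did not) and 43 of them were called higher in Tg mice, where 3.88% of all genes were, and none was called lower. The share called was 36 of 93 for nuclear-encoded and 7 of 13 for mitochondrial members, with median log2 differences of 1.12 and 1.84. This count was 0 without Tg 1 and 0 without Tg 2 in edgeR's test, although 71 and 72 members then had an unadjusted p under 0.05. It was 75 without WT 2 and 73 with DESeq2.

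By complex, in deep barcodes 5 of 8 complex III members were called higher (median log2 1.32), 8 of 19 of complex IV (1.58), 7 of 17 of complex V (1.20) and 15 of 37 of complex I (1.08). Of the 8 assembly factors 1 was called (median 0.31), and the 4 complex II genes had a median of 0.03. Summed over its 4 genes, complex II made up 0.0181% and 0.0204% of deep UMIs in WT lungs, against 0.0184% and 0.0223% in Tg lungs. Here the values of the genotypes overlapped. For comparison the nuclear-encoded part of complex IV made up 0.0525% and 0.0790% in WT lungs, against 0.176% and 0.157% in Tg lungs, without overlap.

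Among the nuclear-encoded members, Atp5g1, Cox6a2 and Cox5b had the largest called differences in deep barcodes. Atp5g1, which encodes the c subunit of the ATP synthase rotor, was measured at 5.82 and 9.29 CPM in WT lungs, against 55.8 and 29.6 in Tg lungs. Its log2 difference was 2.44 (SE 0.39, edgeR adjusted p = 0.0422). Cox5b was at 6.16 and 10.9 against 55.0 and 35.7, with a log2 difference of 2.35 (SE 0.36, edgeR adjusted p = 0.0399). In both genes Tg 1 was the highest and the genotypes did not overlap. Cox6a2, the muscle form of complex IV subunit 6A, was at 0.572 and 1.17 against 4.83 and 4.84, with a log2 difference of 2.41 (SE 0.43, edgeR adjusted p = 0.0463). In low barcodes the same contrast gave 4.16 for Atp5g1 (161 and 56.9 CPM in the Tg mice against 5.58 and 9.80) and 3.75 for Cox5b (155 and 71.3 against 6.84 and 14.1). Cox4i1 was at 83.4 and 122 CPM in deep barcodes of the WT mice and 291 and 266 in those of the Tg mice (log2 difference 1.39, edgeR adjusted p = 0.0422). Cox7a2 and Cox8a, the widely expressed forms of 2 further complex IV subunits, were called as well, at 1.40 and 1.77. Their muscle forms Cox7a1 (2.26) and Cox8b (2.51), the hypoxia-responsive Ndufa4l2 (2.25) and the lung form Cox4i2 (1.66) had differences that did not pass. Cox8c was counted in 1 and 4 UMIs in the deep barcodes of the Tg mice and in none of the WT mice, too few to be tested.

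The 13 mitochondrial genes differed widely in the size of the contrast. The largest called difference in deep barcodes was that of mt-Nd2, a complex I subunit, at 28.4 and 48.4 CPM in WT lungs, against 296 and 213 in Tg lungs (log2 2.68, SE 0.32, edgeR adjusted p = 0.0344). For mt-Atp6, of complex V, the levels were 53.0 and 114 against 415 and 494 (log2 2.39, SE 0.38, edgeR adjusted p = 0.0422). At the other end, mt-Nd6 was at 28.3 and 32.7 in WT lungs, against 28.1 and 39.0 in Tg lungs, with a log2 difference of 0.08 (approximate 95% interval -0.34 to 0.50). It lies on the other strand of the mitochondrial genome from the remaining protein genes (positions 13552 to 14070, minus strand). The difference of mt-Co3 was 0.99, with 247 and 338 against 522 and 686, and did not pass.

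The make-up of the mitochondrial UMIs differed accordingly. In deep barcodes mt-Co3 gave 29.8% and 26.1% of them in WT lungs, against 16.2% and 17.9% in Tg lungs. The share of mt-Nd6 was 3.42% and 2.53% in WT lungs, against 0.875% and 1.02% in Tg lungs. The reverse order was seen for mt-Atp6, with 6.40% and 8.82% against 12.9% in each Tg mouse, and for mt-Nd2, with 3.43% and 3.73% against 9.21% and 5.57%. The genotypes did not overlap in these 4 genes, nor in mt-Co1, which gave 18.3% and 17.6% against 19.5% and 21.7%, whereas they overlapped in mt-Nd1 and mt-Nd4l. The same order was seen in low barcodes, where mt-Co3 gave 34.7% and 37.4% in WT lungs, against 17.5% and 21.4% in Tg lungs, and in EC-like barcodes, where it gave 28.7% and 26.0% against 16.5% and 17.7%. These shares were chosen after their values were seen, and no test was run on them.

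ECs carry the transgene, and so the EC-like barcodes were looked at first among the classes. They numbered 617 and 473 in WT lungs, against 1223 and 1401 in Tg lungs. Mitochondrial members made up 0.0565% and 0.0842% of their UMIs in WT lungs, against 0.381% and 0.345% in Tg lungs, a ratio of 5.16. Nuclear-encoded members made up 0.229% and 0.283% against 0.729% and 0.583%, a ratio of 2.56. In the fit 69 of 102 members were called higher in Tg mice, where 6.22% of all genes were, and none was called lower. They were 57 of 89 nuclear-encoded and 12 of 13 mitochondrial, with median log2 differences of 1.56 and 2.37. The count was 29 without Tg 1.

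By complex, 15 of 17 members of complex V (median log2 1.85), 12 of 15 of complex IV (1.88), 5 of 8 of complex III (1.82) and 23 of 37 of complex I (1.56) were called higher in EC-like barcodes, beside 2 of 8 assembly factors (0.34). The largest difference was again that of mt-Nd2, at 17 and 26.8 CPM in WT lungs, against 348 and 183 in Tg lungs, 12.1-fold (log2 3.60, SE 0.39, edgeR adjusted p = 0.0135). Ndufa13, a complex I subunit, was at 8.96 and 13.2 against 118 and 55.8 (log2 2.97, SE 0.44, edgeR adjusted p = 0.0168). It overlaps the gene Yjefn3 on the same strand, so its reads may be shared. Cox4i1 was at 51.5 and 83.6 against 308 and 241 (log2 2.02, SE 0.27, edgeR adjusted p = 0.0152). The genotypes did not overlap in any of these genes. The difference of mt-Nd6 was 0.81 (20.2 and 19.1 against 31.2 and 38.1, edgeR adjusted p = 0.0799) and did not pass.

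Complex II, like the assembly factors, had a median log2 difference of 0.34 in EC-like barcodes. Its share of EC-like UMIs was 0.0159% and 0.0192% in WT lungs, against 0.0193% and 0.0204% in Tg lungs. Sdha was at 96.4 and 114 CPM against 98.4 and 115, with a log2 difference of 0.01 (approximate 95% interval -0.33 to 0.35, edgeR adjusted p = 0.967). Sdhc, a membrane anchor of the complex, had 0.05 (-0.34 to 0.44), and its iron-sulfur subunit Sdhb had 0.63 (edgeR adjusted p = 0.163). The other anchor, Sdhd, had 1.20 (edgeR adjusted p = 0.107). In low barcodes Sdhb (1.26, edgeR adjusted p = 0.0214) and Sdhd (0.98, edgeR adjusted p = 0.0410) were called higher in Tg mice, and Sdha (0.26) and Sdhc (0.56) were not. In the other 9 classes tested the complex II share of the Tg mice was 1.03 to 1.41 times that of the WT mice, the highest in fibroblast-like barcodes. These classes share the animals and libraries.

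The Tg libraries had the higher share of members in every class. The mitochondrial share of the Tg mice was 4.01 times that of the WT mice in barcodes like ciliated cells and 5.88 times in those like alveolar macrophages, and between these in the other 8 classes. The nuclear-encoded share was 2.16 times as high in ciliated-like and 2.72 times in fibroblast-like barcodes, the lowest and the highest. The same ratios in low barcodes were 5.31 and 3.33. In none of the 10 classes did a WT mouse reach the lower Tg mouse in either share. In low barcodes the ribosomal protein share was 5.23 times and the haemoglobin share 18.9 times as high in the Tg mice.

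**Figure D2:**
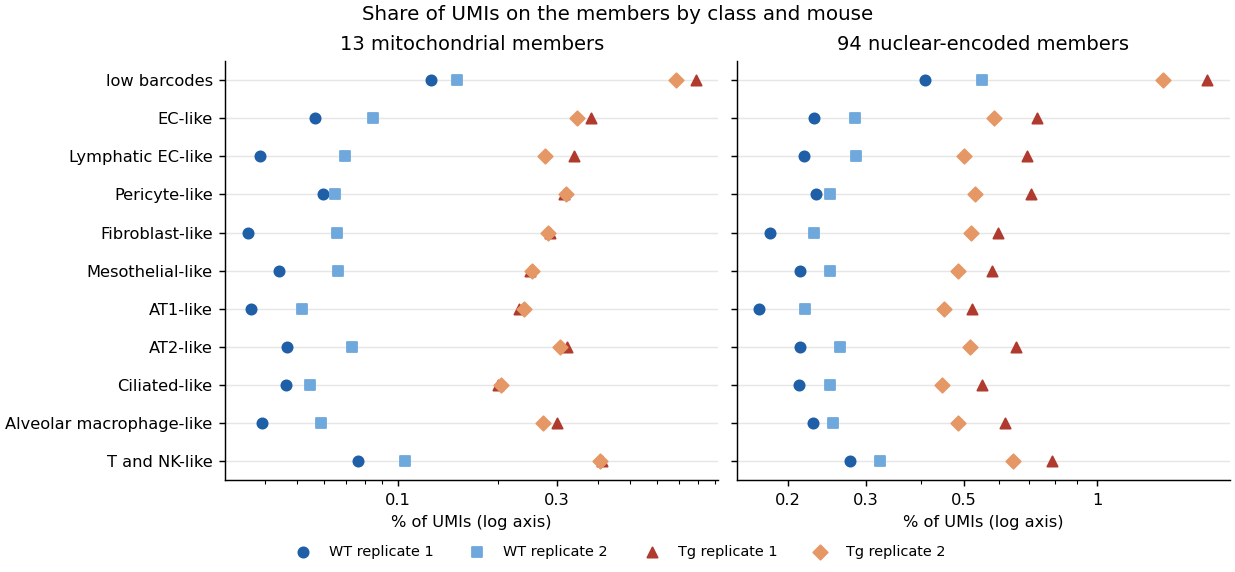
Share of UMIs on mitochondrial (left) and nuclear-encoded (right) members, in percent on a log axis, by class and mouse, with low barcodes beside them and 1 point per mouse. The Tg mice lie to the right of the WT mice in each class, and in the EC-like class the mitochondrial share was 0.0565% and 0.0842% in WT mice and 0.381% and 0.345% in Tg mice.

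Gene by gene, the calls were all towards the Tg mice in each class. They numbered 27 of 53 members tested in barcodes like lymphatic ECs (4.77% of all genes called higher), 27 of 57 in pericyte-like (5.96%) and 55 of 91 in fibroblast-like barcodes (5.11%). In mesothelial-like barcodes 66 of 100 were called (5.70%), in those like alveolar type 1 cells (AT1) 68 of 102 (6.73%), in AT2-like 71 of 102 (7.68%) and in ciliated-like 58 of 102 (4.55%). Among immune classes 50 of 99 were called in alveolar macrophage-like (4.27%) and 63 of 98 in T and NK-like barcodes (5.00%). Median log2 differences of nuclear-encoded members ran from 1.27 in alveolar macrophage-like to 1.71 in lymphatic EC-like barcodes, and of mitochondrial members from 1.95 in ciliated-like to 3.03 in lymphatic EC-like barcodes. Over all genes these medians lay between -0.02 and 0.04. The filter on low counts could be met by the Tg mice alone, where members were higher. Fewest members passed it in lymphatic EC-like and pericyte-like barcodes, so medians there are over members chosen in part by their Tg level. Nothing is read from the place of the lymphatic EC-like medians at the top of both ranges. The calls of AT1-like and of ciliated-like barcodes went to 0 without Tg 1 (74 and 64 members at an unadjusted p under 0.05 in edgeR), and those of fibroblast-like barcodes to 0 without WT 1 (59 at an unadjusted p under 0.05). Ciliated-like barcodes had 21 calls without Tg 2. With DESeq2, with barcodes of 3000 or more UMIs and with a stricter class rule, the calls were 14, 7 and 5 in lymphatic EC-like and 14, 11 and 14 in pericyte-like barcodes. In T and NK-like barcodes they were 24 at 3000 or more UMIs. Without Tg 1 there were 43 calls in AT2-like, 35 in fibroblast-like, 34 in mesothelial-like, 33 in T and NK-like, 25 in alveolar macrophage-like, 18 in pericyte-like and 15 in lymphatic EC-like barcodes.

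**Figure D3:**
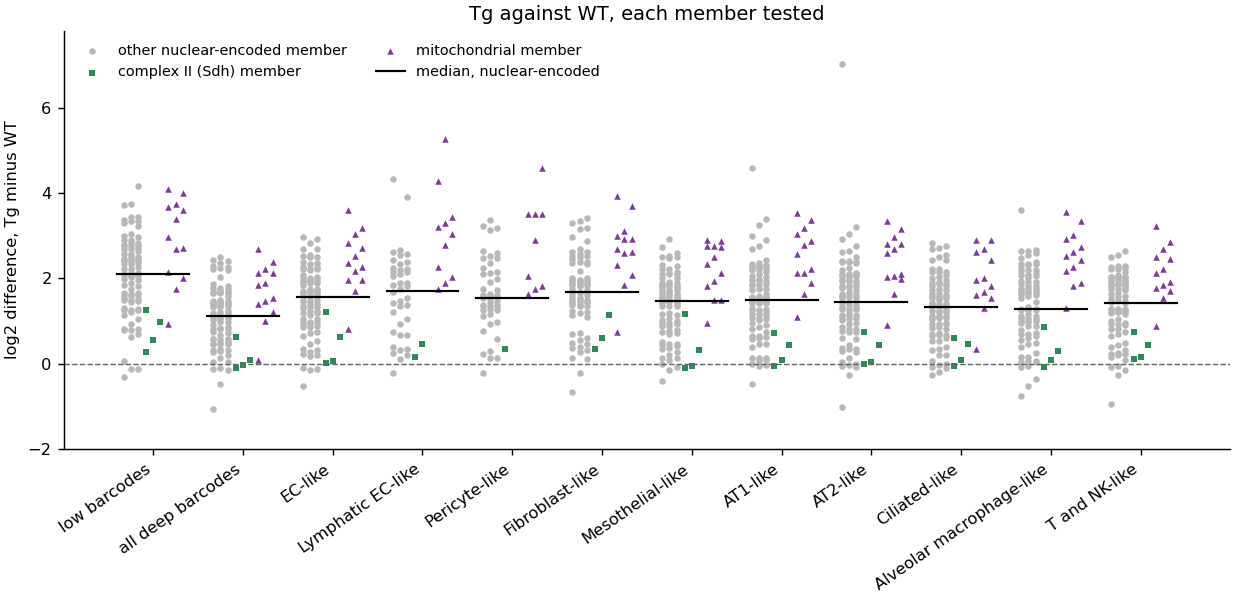
Log2 difference, Tg minus WT, of each member tested in low barcodes, in all deep barcodes and in each class, with a line at the median of the nuclear-encoded members. Grey points are nuclear-encoded genes, green squares the Sdh genes and purple triangles mitochondrial genes, nearly all above 0. The median was 2.10 in low, 1.12 in deep and 1.56 in EC-like barcodes. The highest point, Cox6a2 in AT2-like barcodes, is a fitted value over a WT count of 0. It is read only as at least 8.48-fold, with 3 UMIs as the floor.

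The difference of mt-Nd2 was called in every class, at 2.90 in ciliated-like, 3.34 in AT2-like, 3.54 in AT1-like, 4.58 in pericyte-like and 5.27 in lymphatic EC-like barcodes. All 7 mitochondrial genes of complex I together had 17 and 39 UMIs in pericyte-like barcodes of the WT mice. In lymphatic EC-like barcodes they had 19 and 22, so the mt-Nd2 values of these 2 classes rest on few WT UMIs. Sdha lay between -0.05 in mesothelial-like and AT1-like and 0.46 in lymphatic EC-like barcodes and did not pass in any class, with edgeR adjusted p values from 0.442 to 0.992. Cox6a2 was found in 0 UMIs of AT2-like barcodes in either WT mouse and in 15 and 25 UMIs in the Tg mice, which is at least 8.48-fold higher when 3 UMIs are taken as the floor over both WT mice together. The gene lies on chromosome 7 within Itgad, which is on the other strand.

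The low profile of each mouse was also subtracted from the 7 classes that are not epithelial, which together had 357 calls of 600 tests without subtraction. With the profile of barcodes of 300 to 800 UMIs, an alternative chosen after the data were seen, 31 of 374 were called, from 3 in pericyte-like to 7 in mesothelial-like barcodes and 4 of 80 in EC-like barcodes. Over all genes, in either direction, these fits called 0.636% in pericyte-like to 2.25% in fibroblast-like barcodes, and 1.01% in EC-like barcodes. In EC-like barcodes the median log2 difference was then 0.97 over nuclear-encoded members and 2.34 over mitochondrial members. The share subtracted, estimated from surfactant and secretoglobin transcripts, was 19.6% to 57.1%. In EC-like barcodes it was 42.7% and 42.6% in WT lungs, against 31.0% and 33.2% in Tg lungs. The mitochondrial share of WT 1 was 0.0565% in EC-like and 0.126% in low barcodes, so subtraction left few of its mitochondrial UMIs. Nothing further is read from the median of 2.34. With the profile of barcodes of 20 to 100 UMIs the estimate was 100% of WT 1 in EC-like, lymphatic EC-like, pericyte-like and T and NK-like barcodes and 86.2% to 94.3% in the other 3, which leaves little of that library, and so nothing is read from this setting.

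Whether the genotype difference in EC-like barcodes was unlike that in the other classes was tested as an interaction. edgeR called 0 of 102 members, with 3 at an unadjusted p under 0.05, and DESeq2 likewise called 0, while 6 of 15259 genes (0.0393%) were called over the whole table. For mt-Nd2 the difference of differences was 0.25 (approximate 95% interval -0.25 to 0.75), for Cox4i1 0.05 (-0.24 to 0.34), for Sdha -0.05 (-0.29 to 0.19) and for Cox5b -0.11 (-0.77 to 0.56), on the log2 scale. The intervals are wide for Cox4i2 (-0.72 to 2.23) and Cox6a2 (-2.93 to 0.41). A difference particular to EC-like barcodes was thus not detectable here.

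The third comparison set each class against the mean of the other classes, with the mouse as a block. The classes of a mouse come from 1 library. The residual spread of this fit is over class sums that share libraries, so its SE and p values do not measure the spread between mice within a class. Over the 10 classes 138 of 1020 tests were called, 80 higher and 58 lower. In either direction, the fits called 7.86% to 55.6% of all genes by class. In each class the share of members called in either direction (0% to 38.2%) was below that of all genes, so the counts of calls are not results about the members. Without the block 7 were called, and 80, 73 and 71 without WT 2, Tg 1 and Tg 2.

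Pericyte-like barcodes had 1 call (7.86% of all genes were called in either direction), for Cox4i2, the form of complex IV subunit 4 that is known from lung and from hypoxia (chromosome 2, 152754173 to 152765037, plus strand). It was at 36.8 and 42.6 CPM in the pericyte-like barcodes of the WT mice and 154 and 54.1 in those of the Tg mice. In EC-like barcodes it was at 0.896, 0.909, 8.15 and 4.24. The pericyte-like values rest on 5, 10, 31 and 24 UMIs, and lay above the EC-like value of the same mouse in all 4 mice. The log2 difference was 4.57 (SE 0.29, edgeR adjusted p = 1.15e-17), and 4.41 to 5.11 over the alternatives. Cox4i2 was called lower in AT1-like (-1.40), alveolar macrophage-like (-1.07), ciliated-like (-0.90) and mesothelial-like barcodes (-0.88), where the mean of the other classes includes the pericyte-like one. Cox4i1, its widely expressed counterpart, was called in EC-like barcodes by 0.19. Between genotypes Cox4i2 had a log2 difference of 1.37 in pericyte-like barcodes (SE 0.56, edgeR adjusted p = 0.194).

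**Figure D4:**
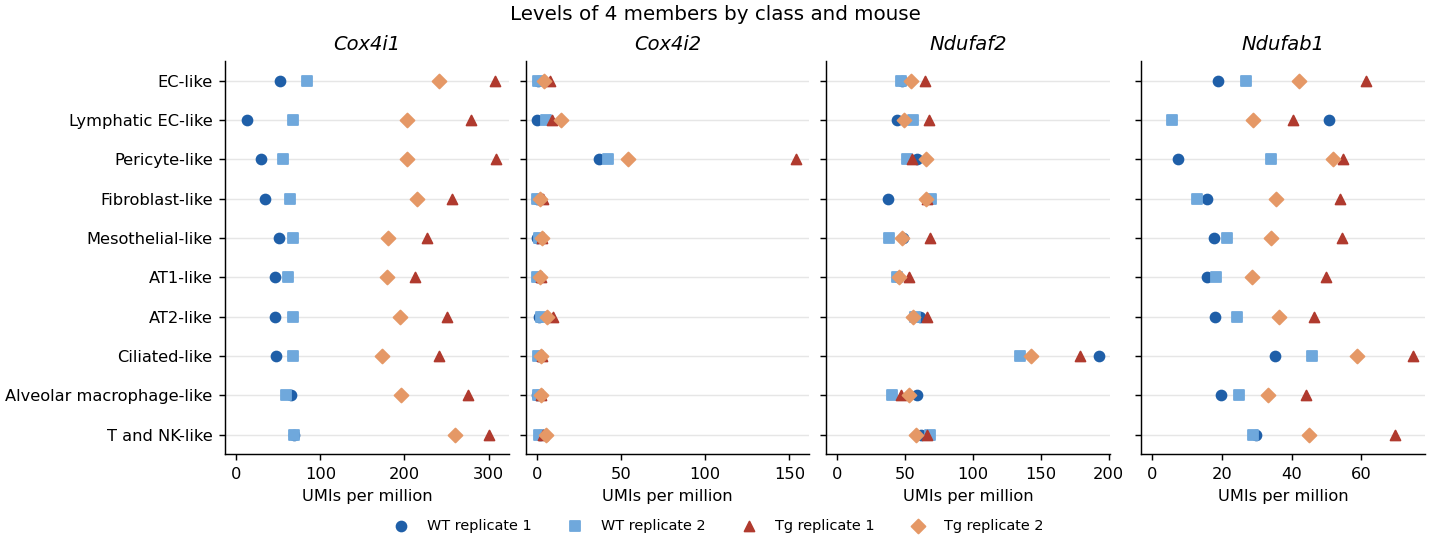
CPM of Cox4i1, Cox4i2, Ndufaf2 and Ndufab1 by class, with 1 point per mouse. Cox4i2 stood out in pericyte-like barcodes (36.8 to 154) and Ndufaf2 in ciliated-like barcodes (135 to 193), while for Cox4i1 the Tg mice (173 and above) lay over the WT mice (83.6 and below) in each class.

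In ciliated-like barcodes 39 of 102 members were called, 6 higher and 33 lower (38.2%, beside 55.6% of all genes, in either direction). All 13 mitochondrial members were lower there, by log2 values from -0.27 for mt-Nd3 to -0.52 for mt-Nd6. The 6 that were higher all belong to complex I or its assembly. Ndufaf2, an assembly factor, was at 193, 135, 179 and 143 CPM, and between 37.1 and 69.3 in the other 9 classes tested, a log2 difference of 1.67 (SE 0.07, edgeR adjusted p = 1.94e-24). It spans 155909 bases on chromosome 13 (108002715 to 108158623, minus strand), with Smim15 inside it on the other strand. Ndufab1, the mitochondrial acyl carrier protein that is also a complex I subunit, was at 35.1, 45.8, 74.7 and 58.9, against 15.7, 18.3, 49.8 and 28.6 in AT1-like barcodes, with a log2 difference of 0.84 (SE 0.11, edgeR adjusted p = 3.23e-09). Ndufaf6 (0.62), Ndufaf7 (0.49), Ndufs3 (0.32) and Ndufc2 (0.24) were the others. Among the lower ones were Ndufb4 (-0.44) and Ndufb8 (-0.35) of complex I, Uqcrq (-0.33) of complex III, and Atp5o (-0.37) and Atp5j (-0.34) of complex V. The count lower was 15 without Tg 1 and 17 without Tg 2. Median depth differed between classes, as given below, and its part in these values was not tested.

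In T and NK-like barcodes 23 of 102 members were called (22.5%, beside 27.8% of all genes, in either direction). All were higher, the 13 mitochondrial ones among them, at log2 values from 0.34 to 0.57. The level of mt-Nd3 there was 12.8, 32.1, 84.9 and 78.9 CPM, against 9.10, 12.8, 36.0 and 44.0 in ciliated-like barcodes. In EC-like barcodes 24 of 102 members were called (23.5%, beside 25.6% of all genes, in either direction). Ndufaf2 (-0.26) was lower, where 11.4% of all genes were. The other 23 were higher, where 14.2% of all genes were, with 9 mitochondrial ones among them, such as mt-Co2 and mt-Nd1 (0.31 each). The EC-like count higher was 8 without WT 2, 5 without Tg 1 and 12 without Tg 2. AT2-like barcodes had 18 higher and 1 lower (40.2%), led by Atp5f1, of the stator of complex V (0.35), and Ndufa12 (0.31), and with Sdha at 0.24. That count higher was 5 without WT 2 and 4 without either Tg mouse.

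Alveolar macrophage-like barcodes had 7 higher and 11 lower (51.1%). Sdhb (0.46) and Sdhc (0.30), of complex II, were among the former, and Uqcrb of complex III (-0.44) and Ndufa13 (-0.40) among the latter. There were 2 higher without WT 1 and 3 without WT 2, and 18 lower without WT 1, 7 without WT 2 and 5 without Tg 1. The remaining classes held few calls. Mesothelial-like barcodes had 1 higher and 6 lower (39.7%), AT1-like 1 higher and 4 lower (40.5%), and fibroblast-like barcodes had Sdhd (-1.01) and Ndufa12 (-0.61) lower (24.2%), the former lost under 6 alternatives. In lymphatic EC-like barcodes, the class with the fewest barcodes, edgeR and DESeq2 called 0 members (9.95% of all genes), with 4 at an unadjusted p under 0.05 in edgeR.

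The size of a gene went along with both main contrasts. Spans of the nuclear-encoded members in GENCODE vM21 (GRCm38) ran from 953 to 155909 bases, with a median of 7333. In the deep minus low contrast, members under 5000 bases had a median log2 difference of -1.20 (30 genes), those of 5000 to 10000 bases -1.08 (33 genes), those of 10000 to 20000 bases -0.87 (16 genes) and those of 20000 bases or more -0.37 (13 genes). Pearson's r with log10 span was 0.70 over 92 members, and 0.45 over the 18845 genes tested with a position. In the Tg minus WT contrast of deep barcodes the medians were 1.65, 1.12, 0.67 and 0.01 in the same order (r -0.74 over 93 members, beside -0.35 over 21004 genes), and in EC-like barcodes 2.01, 1.61, 1.11 and 0.23. Those of 20000 bases or more lay between -1.07 and 0.51 in deep barcodes. Ndufs4, with 100464 bases, was at 126 and 129 CPM in WT lungs, against 117 and 120 in Tg lungs. These correlations are over genes of the same libraries and are given as a description. In the annotation 11 members overlap another coding gene on their own strand, such as Cox4i1, mt-Atp6 with mt-Atp8 and mt-Nd4 with mt-Nd4l, and their reads may be shared. Sdha spans 28027 bases (chromosome 13, 74322254 to 74350280, minus strand) and Cox5b 2233 bases (chromosome 1, 36691449 to 36693681, plus strand).

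**Figure D5:**
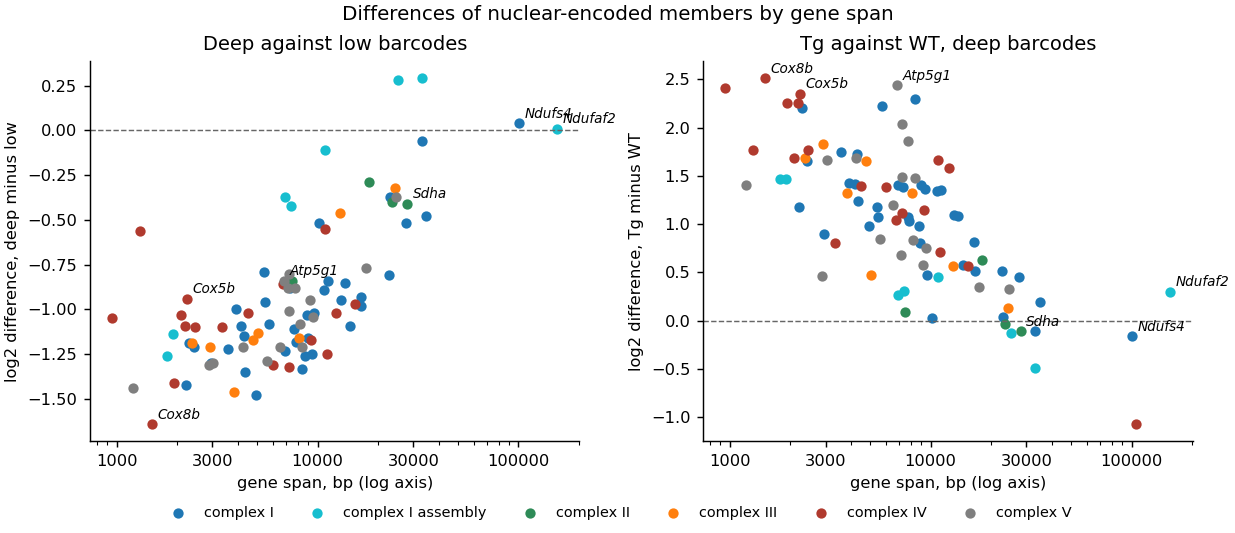
Log2 difference of each nuclear-encoded member against its span in bases (log axis), for deep minus low barcodes (left) and Tg minus WT in deep barcodes (right), coloured by complex. Short genes lie lowest on the left (median -1.20 under 5000 bases) and highest on the right (median 1.65), and genes of 20000 bases or more lie between -1.07 (Cox7b2, of 47 UMIs in deep barcodes) and 0.51 on the right (median 0.01).

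Other genes of the pathway, a list of 69 for cytochrome c, carriers, assembly, the TCA cycle and regulators, were tested in the same fits. Against low barcodes, 23 of them fell (18.3% of all genes did) and 4 rose (13.1% of all genes did) in deep barcodes. The copper chaperone Cox17 fell by 1.22, the complex II assembly factor Sdhaf1 by 1.11 and Cox14, of complex IV assembly, by 1.10. Between genotypes 3 of 69 were called higher in deep barcodes, about the 3.88% of all genes, namely Slirp (1.32), which binds mitochondrial RNA, and the complex IV factors Higd2a (1.19) and Cox14 (1.07). In low barcodes 18 were higher in Tg mice (14.5% of all genes were), led by the uncoupling protein Ucp2 (2.54). Another 3 were lower there, where 1675 of the 15180 genes tested were called lower. In EC-like barcodes 8 of 68 were called higher, beside 6.22% of all genes, with Surf1, a complex IV assembly factor, at 2.12 and cytochrome c (Cycs) at 2.03. Cycs was at 3.59 and 7.27 CPM in WT lungs, against 25.8 and 18.9 in Tg lungs, without overlap.

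Between classes, 17 of the 69 were higher and 5 lower in ciliated-like barcodes, where 55.6% of all genes were called in either direction. Among the higher ones were Ppargc1a, the coactivator of mitochondrial biogenesis (2.33), Lyrm7, which assists complex III assembly (2.12), the haem synthesis gene Cox10 (0.98) and Suclg2 of the TCA cycle (0.94). Sco2, a copper chaperone of complex IV, had a log2 difference of 4.05, at 118, 72.2, 86.0 and 75.1 CPM, but it overlaps Tymp on the same strand and Ncaph2 on the other, so its reads are uncertain. In alveolar macrophage-like barcodes Ppargc1b was higher by 2.36 (419, 197, 118 and 136 CPM) and Esrra, which encodes ERR alpha, by 1.17, while Ppargc1a was lower by a log2 value of -1.16. Esrra was at 77.2, 69.5, 48.4 and 59.5 there, against 26.9, 31.4, 26.9 and 28.9 in EC-like barcodes. AT2-like barcodes had 15 higher and 1 lower (40.2% of all genes called), with Ppargc1a at 1.21, and fibroblast-like barcodes had Pdk4, a kinase that shuts off pyruvate dehydrogenase, at 2.95. In EC-like barcodes 7 were lower (11.4% of all genes were called lower), led by Ppargc1b (-0.54), the complex III factor Ttc19 (-0.49) and Cox10 (-0.41).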

How the data were processed

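Nuclei of whole lung were sequenced on a droplet platform, with 1 library for each of 2 WT and 2 Tg mice. The authors deposited 4 unfiltered matrices of UMI counts per gene and barcode over 32285 genes, made with Cell Ranger 6.1.1 on mm10 per the labels, with intronic reads included per the study's methods, although the matrix headers name another Cell Ranger release. The deposited counts had no removal of free RNA or doublets, and barcode and feature files were read as names. Total UMIs were 125261739 to 182014706 per library.

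The members, the class markers and the list of other pathway genes were chosen with earlier results of these data known. Barcodes of 1500 or more and of 300 to 800 UMIs were summed per mouse. A deep barcode was put in a class if its marker UMIs exceeded, by a variance-stabilised score of at least 4, those that the low profile of its mouse gives, with 3 or more markers detected and a score at least 2 times that of the next class (4 times in the stricter rule). Markers over 500 CPM in low barcodes (18 of them) were left out of the score. These limits were set after the data were seen. No doublet caller was run, barcodes scoring for more than 1 class (231 to 1457 per mouse) got none, and barcodes over 10000 UMIs were left out as an alternative. Club, B, monocyte, dendritic, smooth muscle, neutrophil, cardiac muscle and red cell classes had fewer than 30 barcodes in at least 1 mouse and were not tested.

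Sums were tested over all genes with edgeR 4.0.16 (quasi-likelihood test, TMM, filterByExpr with a minimum count of 10, Benjamini-Hochberg at 0.05) in R 4.3.3, with limma 3.58.1 loaded, and DESeq2 1.42.0 was the alternative. The deep against low and class fits had the mouse as a block. Shares were compared by exact permutation tests in scipy 1.17.1. The edgeR fits of Tg against WT in EC-like barcodes and of deep against low barcodes were tested on simulated data, and the other fits were not. CPM are counts scaled to the summed UMIs of the same barcodes. Differences in log2 are edgeR estimates. Their 95% intervals are approximate: they use the SE and a normal multiplier, and are narrower than intervals from the quasi-likelihood test with so few mice.

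Named were the mitochondrial genes, the Sdh genes, the complex IV isoform genes, the 10 nuclear-encoded members with the highest mean level, members with 0 UMIs, the 5 largest called rises and falls per comparison whose groups did not overlap, and the 3 largest called changes of other pathway genes. Ndufb8, Ndufs1, Uqcrq and Atp5j are outside this rule and were named after their values were seen. Alternatives were other depth limits, the stricter class rule, DESeq2, no filter, no mitochondrial UMIs, free RNA subtraction, the blocks, and leaving out each mouse. Positions are from GENCODE vM21 (GRCm38) and promoters from RefSeq.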

Additional observations from a re-analysis of the deposited data

How the results depend on the processing

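Calls depended on single libraries, on the block and on the profile subtracted. Tg against WT, the members called in deep barcodes (43) were 0 to 75 when 1 mouse was left out, 73 with DESeq2 and 70 with no filter on low counts. In low barcodes (92) they were 0 to 90, and 2 of 5 tested with barcodes of 20 to 100 UMIs. Over the 10 classes (554) they were 232 to 594, and over the 7 that are not epithelial (357) they were 189 to 382, 0 after subtraction of the 20 to 100 UMI profile, which took up to 100% of WT 1 and so tests nothing, and 31 after that of the 300 to 800 UMI profile. Each low end was without Tg 1, and for deep barcodes also without Tg 2. With DESeq2, 3000 or more UMIs or the stricter rule, the calls fell to 14, 7 and 5 in lymphatic EC-like and 14, 11 and 14 in pericyte-like barcodes (27 each). T and NK-like barcodes had 24 calls in place of 63 at 3000 or more UMIs. Deep against low barcodes (77), the members called were 0 to 87 when 1 mouse was left out, 0 without the mouse as a replicate block, 2 with low barcodes of 20 to 100 UMIs, 1 of them higher, and 96 at 3000 or more UMIs, 2 of them higher. The class calls (138) were 71 to 159 when 1 mouse was left out, 70 at 3000 or more UMIs and 7 without the mouse block. The cause was not tested, beyond the fewer mice or genes that some alternatives leave.

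Of the tests of named genes called Tg against WT, 720 repeats kept the call and 138 lost it, and none changed sign. For classes these were 238 and 105, and for deep against low 129 and 60, again with no change of sign. Of repeats of tests not called, 68 Tg against WT and 8 deep against low became called, and 18 and 19 moved by more than 1 SE. The mean share differences kept their direction, from -0.122 (without Tg 1) to -0.317 points for mitochondrial and from -0.102 to -0.676 for nuclear-encoded members in deep against low barcodes. The value of -0.102, against barcodes of 20 to 100 UMIs, came with WT 1 in the opposite direction (0.278% in deep barcodes, 0.240% in the others). The 0.240% rests on 30 UMIs, too few to fix that direction. The interaction gave 0 called members under every alternative run. The 300 to 800 UMI subtraction and the alternatives for the nuclear-encoded share between genotypes were chosen after the data were seen.

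The labels number the mice 1 and 2 in each genotype, but give no shared litter, batch or day, and there are only 2 pairs. Deviations of same-numbered mice from their genotype mean correlated by -0.08 to 0.28. With the number as a replicate block, calls went from 43 to 73 in deep barcodes, from 92 to 90 in low barcodes, from 554 to 615 over the 10 classes and from 357 to 380 over the 7 that are not epithelial, while alveolar macrophage-like barcodes went from 50 to 26.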

Other observations

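Classes with too few barcodes for a test had shares in the same ranges. In club-like barcodes the mitochondrial share was 0.0462% and 0.0516% in WT lungs, against 0.249% and 0.265% in Tg lungs. In B-like barcodes it was 0.0802% and 0.0782% against 0.384% and 0.368%, in dendritic-like barcodes 0.0411% and 0.0733% against 0.327% and 0.335%, and in monocyte and interstitial macrophage-like barcodes 0.0667% and 0.0600% against 0.352% and 0.348%. Deep barcodes with no class had 0.0926% and 0.149% against 0.344% and 0.421%, above the shares of all named barcodes together (0.0457% and 0.0660% against 0.276% and 0.282%) in every mouse.

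Set against the low barcodes of the same mouse, the mitochondrial share of EC-like barcodes was 0.448 and 0.558 times as high in the WT mice and 0.485 and 0.503 times in the Tg mice, and the genotypes overlapped on this scale. The same ratio for nuclear-encoded members was 0.563 and 0.517 in WT lungs, against 0.412 and 0.414 in Tg lungs. For haemoglobin it was 0.432 and 0.339 against 0.390 and 0.360, and for ribosomal protein transcripts 0.433 and 0.413 against 0.381 and 0.387. In ciliated-like barcodes the mitochondrial ratio was 0.366 and 0.361 against 0.255 and 0.297.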
